A study of Mus musculus with 12 samples.

Results

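The AP-1 and EGR immediate early factors are 10 genes: Fos, Fosb, Fosl1 and Fosl2 of the FOS family, Jun, Junb and Jund of the JUN family, and Egr1, Egr2 and Egr3 of the EGR family. They were taken by name from a table of 48709 mouse genes, and all 10 passed the filter on low counts of the exon fit, which left 13702 genes. The table comes from RNA-seq of mouse embryonic fibroblasts (MEFs) of wild type C57BL/6 embryos of E12.5 to 13.5. Cells were transfected with an siRNA against IMP2 or a control siRNA, the medium was changed 24 hours later, and they then received IL-17 at 200 ng/mL for 8 hours or no stimulus. The 4 groups are siIMP2_IL17 (IMP2 siRNA, IL-17), siControl_IL17 (control siRNA, IL-17), siIMP2 (IMP2 siRNA, unstimulated) and siControl (control siRNA, unstimulated), with 3 libraries each. All 12 cultures were transfected, so no untransfected cells are among the groups, and the cells were trypsinized before RNA was taken. IMP2 is an RNA-binding protein encoded by Igf2bp2, and IL-17 is a cytokine that raises chemokine genes in stromal cells.

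FOS and JUN proteins carry a leucine zipper and bind DNA in pairs as AP-1. JUN proteins can pair with each other or with FOS proteins, while FOS proteins need a JUN partner, so the mix of family members sets which pairs can form. EGR proteins are zinc finger factors that bind GC-rich promoter sites. In fibroblasts many of these genes are transcribed within minutes of serum or growth factor, through the serum response factor SRF and its ternary complex partners, and their mRNAs are short-lived. Fosl1, Fosl2 and Jund are also kept at a steady level in growing cells, and a sample taken hours after a stimulus lies outside the first transient wave.

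The libraries held 33841054 to 44433699 exon counts each. Titles begin with NA for replicates 1 and 2 of every group (8 libraries) and with RB160 for replicate 3 (4 libraries). What the prefix stands for was not given in the labels, and it was a term in each fit. Mitochondrially encoded protein genes took 3.31% to 3.85% of exon counts in RB160 libraries and 5.41% to 6.9% in NA libraries. Igf2bp2, the siRNA target, was lower by a log2 fold change of -2.77 ± 0.15 (SE) in siIMP2 against siControl and of -2.70 ± 0.15 in siIMP2_IL17 against siControl_IL17. CPM of marker and heat-shock genes are exon counts scaled to the library's total. For CPM of the members that total was also multiplied by the library's TMM scaling factor. The 10 fibroblast markers summed to 31200 to 37500 CPM in the libraries with the IMP2 siRNA and to 28600 to 35400 CPM in those with the control siRNA. Of these markers 6 fell and 2 rose in each siRNA comparison. Markers of macrophages, endothelium, epithelium and erythroid cells summed to at most 6.03 CPM in any library. In a bulk sample, fewer cells of a type and less RNA per cell cannot be told apart. Nothing in the labels says whether replicates were grown apart, and p-values here measure the spread between these libraries only.

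The IMP2 siRNA divided the members. In unstimulated cells 4 of 10 were higher (Fosb, Fosl1, Jund and Egr2) and 4 were lower (Fos, Junb, Egr1 and Egr3) in siIMP2 than in siControl at an edgeR adjusted p under 0.05, beside 32.9% of the 13702 genes tested. In IL-17-treated cells 3 were higher (Fosb, Fosl1 and Egr2) and the same 4 were lower in siIMP2_IL17 than in siControl_IL17, beside 33.4% of all genes. Fosl2 and Jun passed the test in neither comparison. The calls, more than the fold changes, rest on the title-set term. Without it 0 of 10 members and 321 genes were called in unstimulated cells, and 2 members and 327 genes in IL-17-treated cells. The log2 fold changes in unstimulated cells were then -1.28 for Fos, -1.43 for Egr3 (edgeR adjusted p = 0.0558), -0.73 for Egr1 (edgeR adjusted p = 0.0637) and 0.76 for Fosb, close to those given with the term below. IL-17 itself moved 0 of the 10 members past the threshold with either siRNA.

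**Figure D1:**
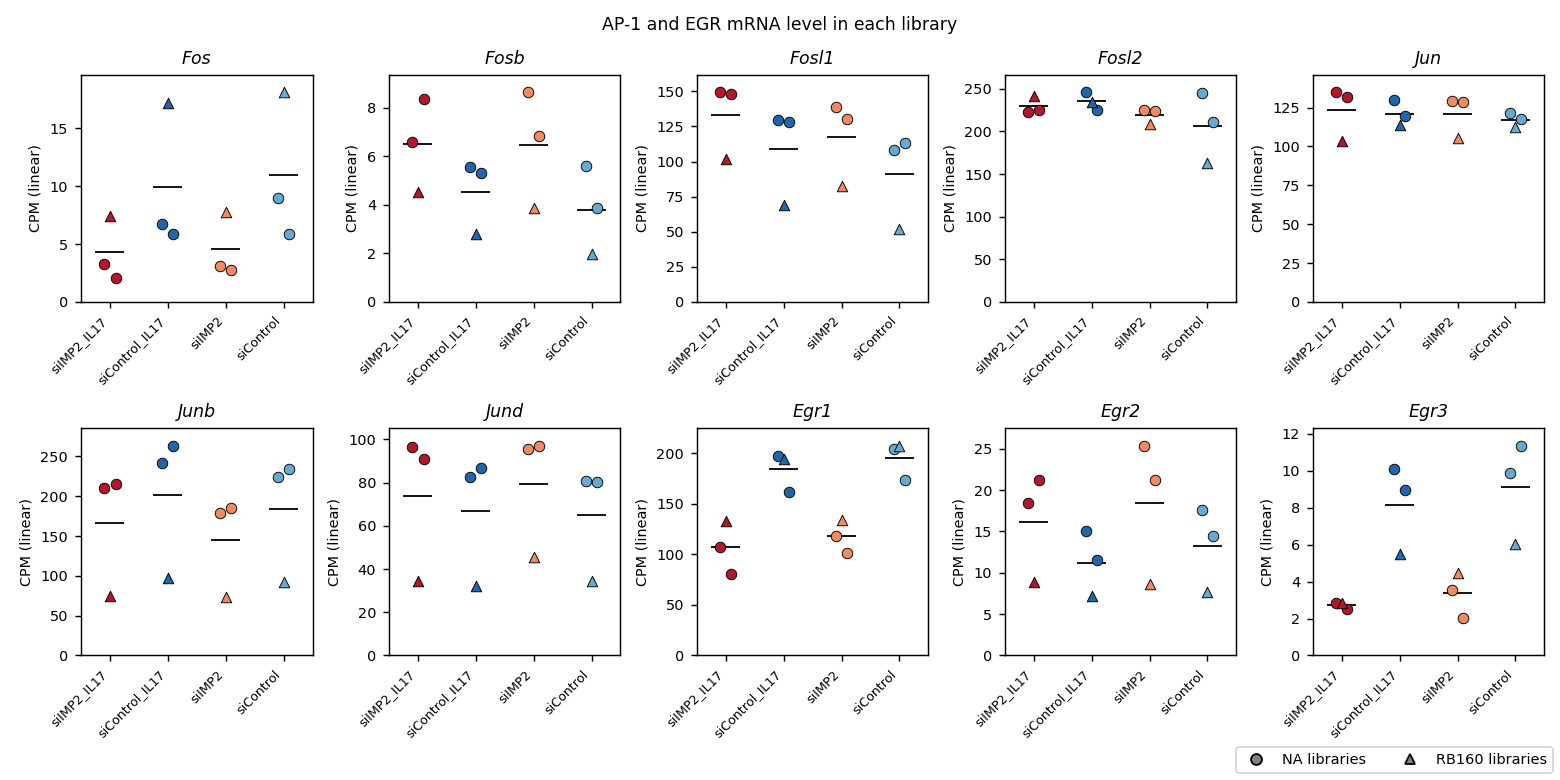
Exon CPM (linear axis from 0) of each member in every library, by group. Circles are NA libraries, triangles RB160 libraries and bars the group means of 3 libraries. Egr1 and Egr3 separate the IMP2 siRNA libraries from the control siRNA libraries over all 12. How many of all genes do so was not counted. Fosl1, Jun, Junb, Jund and Egr2 separate the prefixes.

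Levels can be compared between genes only per length, for which the deposited TPM values serve, which divide by length. Averaged over the 12 libraries, Junb stood at 205.4 TPM and Fosl1 at 180.9 TPM, Jund at 115.9, Jun at 106.0, Egr1 at 96.7 and Fosl2 at 91.6 TPM. Egr2 at 11.8, Egr3 at 11.6, Fos at 9.52 and Fosb at 3.84 TPM formed a lower tier. The highest value in the lower tier, 25.3 TPM for Fos, was below the lowest in the upper tier, 46.1 TPM for Egr1, so the tiers did not overlap in any library. Within a tier, neighbouring members overlapped in their ranges over libraries. Fos and Egr3, the members with the largest falls, therefore belong to the lower tier, and Junb and Egr1, which also fell, to the upper tier.

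Promoter sequence is shown for 4 members that the siRNA moved, Fos and Junb, which fell, and Fosb and Egr2, which rose, to set their start regions side by side. Where a gene had several windows, the one nearest the gene start in the deposited files is shown. Each runs from 250 bases before to 50 bases after a RefSeq start site on build GRCm38.p6, read 5′ to 3′ on the gene's strand. In the set of RefSeq promoters used here 7 of the 10 members had entries, with 11 windows in all, and Egr1, Egr3 and Fosl1 had none in that set. Capitals mark matches on either strand to the CArG box bound by SRF, the EGR motif GCGNGGGCG, the AP-1 motif TGANTCA, the cAMP response element TGACGTCA or the NF-kB motif.
Fos (chr12:85473640-85473939, plus strand): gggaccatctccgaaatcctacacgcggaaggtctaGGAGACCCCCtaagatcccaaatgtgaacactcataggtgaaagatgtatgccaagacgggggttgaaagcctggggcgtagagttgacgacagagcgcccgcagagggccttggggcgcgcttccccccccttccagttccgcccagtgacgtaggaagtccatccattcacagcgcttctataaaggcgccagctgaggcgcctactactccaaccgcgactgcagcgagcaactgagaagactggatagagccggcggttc
Junb (chr8:84978699-84978998, minus strand): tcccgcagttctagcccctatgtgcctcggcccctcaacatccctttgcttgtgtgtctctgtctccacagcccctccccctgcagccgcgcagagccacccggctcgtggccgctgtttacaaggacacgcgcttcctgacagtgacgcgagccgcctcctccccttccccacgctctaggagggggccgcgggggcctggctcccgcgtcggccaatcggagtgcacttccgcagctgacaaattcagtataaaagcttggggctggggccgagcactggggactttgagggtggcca
Fosb (chr7:19309996-19310295, minus strand): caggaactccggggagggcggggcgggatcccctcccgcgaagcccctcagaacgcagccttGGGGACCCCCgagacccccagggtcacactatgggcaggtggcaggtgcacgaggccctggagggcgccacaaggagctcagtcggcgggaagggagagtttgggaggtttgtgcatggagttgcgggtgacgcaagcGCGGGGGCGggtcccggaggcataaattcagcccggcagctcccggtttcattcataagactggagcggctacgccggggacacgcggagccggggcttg
Egr2 (chr10:67535249-67535548, plus strand): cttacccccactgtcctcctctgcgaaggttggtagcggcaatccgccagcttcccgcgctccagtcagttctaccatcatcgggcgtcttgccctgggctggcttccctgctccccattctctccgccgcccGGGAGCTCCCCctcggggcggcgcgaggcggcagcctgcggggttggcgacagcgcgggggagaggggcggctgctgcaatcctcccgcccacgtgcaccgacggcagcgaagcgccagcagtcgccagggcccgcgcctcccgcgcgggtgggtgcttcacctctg

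In these windows Junb held none of the 5 motifs, and Fos held an NF-kB match at positions -214 to -205 and no CArG box. Fosb held an NF-kB match at -188 to -179 and an EGR match at -50 to -42. Bases outside a gene's windows were not searched. A motif absent here, such as the CArG box for Fos, may therefore lie further upstream or downstream. The Egr2 window shown held overlapping NF-kB matches at -117 to -108 and -116 to -107 and no CArG box, while the other 4 Egr2 windows, whose starts lie 2091 to 2455 bases from the deposited gene start, each held a CArG box. Some of these windows overlap and share a box, so they do not hold 4 separate sites. A CArG box occurred in 1.63% of 32851 RefSeq promoter windows, the EGR motif in 5.55% and the NF-kB motif in 8.46%. TGANTCA was in 7.81% and TGACGTCA in 1.79%, and neither was in any window of a member. The ETS core GGAA, which ternary complex factors bind, was in 96.0% of all windows and in those of all 7 members, so it separates nothing here. The Fosl2 window also held the EGR motif, at -79 to -71, and overlapping NF-kB matches at -182 to -173 and -181 to -172. These matches describe letters only. The start of the Egr2 window shown lies 24 bases from the gene start in the deposited files, that of Fos is the same in both, and those of Fosb and Junb differ by 6 and 30 bases.

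Fos encodes the founding FOS protein, an unstable partner of JUN. Its exon level was 3.07, 2.74 and 7.80 CPM in siIMP2 replicates 1, 2 and 3, against 8.98, 5.91 and 18.2 CPM in siControl. With IL-17 it was 3.31, 2.04 and 7.47 CPM in siIMP2_IL17, against 6.72, 5.90 and 17.2 CPM in siControl_IL17. The RB160 library was the highest of each group, so the siRNA groups overlapped over all 12 libraries, but not within either prefix. How many of all genes have siRNA groups apart within a prefix was not counted, here or for the members below. The log2 fold change was -1.31 ± 0.17 (SE) for siIMP2 against siControl (edgeR adjusted p = 8.92e-05) and -1.22 ± 0.17 with IL-17 (edgeR adjusted p = 1.59e-04). It was -1.21 within RB160 and -1.37 within NA in unstimulated cells, and -1.20 and -1.24 in IL-17-treated cells.

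Fosb, whose protein exists in a full-length and a shorter splice form, went the other way from Fos. It was at 8.66, 6.82 and 3.88 CPM in siIMP2, against 5.60, 3.85 and 1.97 CPM in siControl. In IL-17-treated cells it was at 6.60, 8.37 and 4.55 CPM in siIMP2_IL17, against 5.55, 5.31 and 2.79 CPM in siControl_IL17. Here the RB160 library was the lowest of each group, and again the siRNA groups did not overlap within a prefix. The fitted rise was 0.78 ± 0.17 on the log2 scale without IL-17 (edgeR adjusted p = 0.00333) and 0.54 ± 0.16 with it (edgeR adjusted p = 0.0219). The second call was lost when any of 4 single libraries was left out, with log2 fold changes of 0.43 to 0.54 and adjusted p of 0.0572 to 0.0902: replicate 2 or 3 of siIMP2_IL17, and replicate 2 or 3 of siControl_IL17. That call was also lost in the NA libraries alone (0.455, edgeR adjusted p = 0.0871).

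Fosl1 encodes FRA1, a FOS protein without the strong activation domain of FOS. It had the largest share of the FOS family TPM in every library, at the lowest 48.75% in both control siRNA groups. Its level was 139.0, 130.4 and 82.5 CPM in siIMP2, against 108.4, 113.0 and 52.0 CPM in siControl. With IL-17 it was 149.5, 148.1 and 101.9 CPM in siIMP2_IL17, against 129.5, 128.1 and 68.8 CPM in siControl_IL17. The groups overlapped over all libraries and not within a prefix. It rose by 0.40 ± 0.09 without IL-17 (edgeR adjusted p = 0.00395) and by 0.33 ± 0.09 with it (edgeR adjusted p = 0.0116) on the log2 scale. The second call was lost without replicate 3 of siIMP2_IL17 (0.21, adjusted p = 0.0646) or of siControl_IL17 (0.29, adjusted p = 0.0597). Fosl2, which encodes the related FRA2, ranged from 209.1 to 241.2 CPM over the 6 IMP2 siRNA libraries and from 162.9 to 246.2 CPM over the 6 control siRNA libraries, with log2 fold changes of 0.09 ± 0.10 and, with IL-17, -0.03 ± 0.10.

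The make-up of the FOS family by TPM is given as a description, with no test. Fos took 2.05% ± 1.68 of the summed FOS family TPM in siIMP2 and 6.16% ± 5.38 in siControl (SD, n = 3 each). Fosl1 took 65.1% ± 6.12 in siIMP2 and 58.4% ± 8.75 in siControl. Fosb took 1.60% ± 0.36 in siIMP2 and 1.09% ± 0.30 in siControl, and these spreads hold the difference between prefixes.

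**Figure D2:**
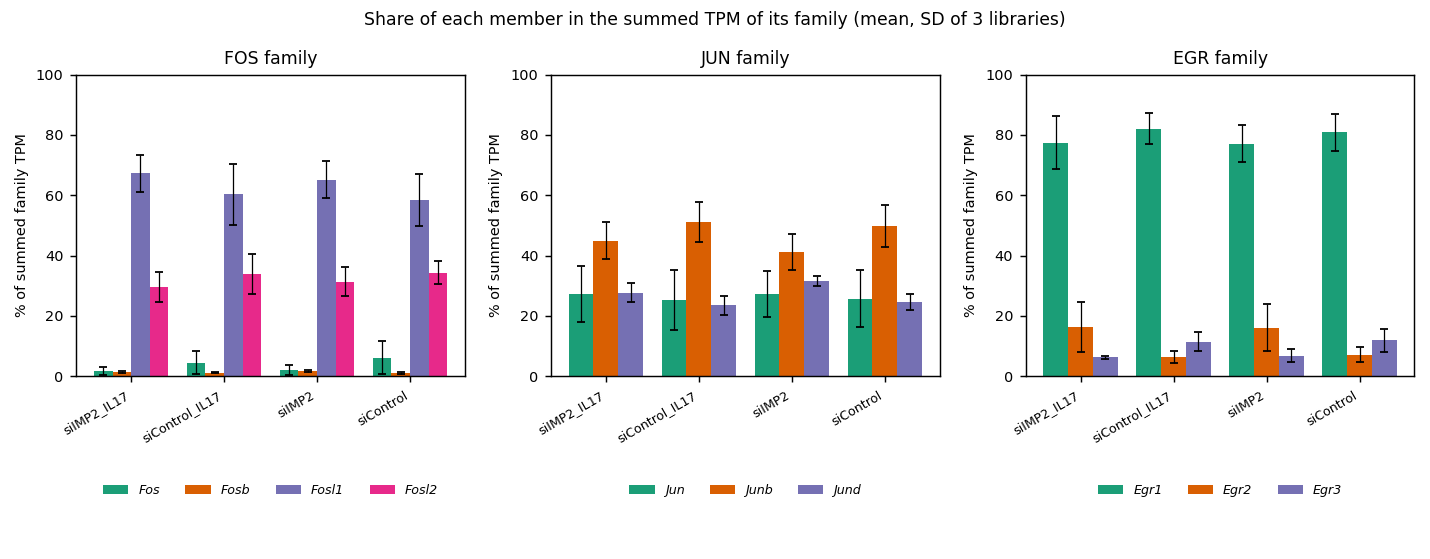
Share of each member in the summed TPM of its own family, by group (bars start at 0; mean and SD of 3 libraries). Fosl1 leads the FOS family and Egr1 the EGR family in every group, with the mean of Egr2 above that of Egr3 in both IMP2 siRNA groups and below it in both control siRNA groups. In the RB160 library of siIMP2 the order was the other way, with Egr2 at 8.11 TPM and Egr3 at 10.1 TPM.

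Among the JUN genes, Junb was the member that fell. JUNB is a JUN protein that activates less strongly than JUN at many sites. Junb stood at 178.6, 184.9 and 72.8 CPM in siIMP2, against 223.9, 233.7 and 92.6 CPM in siControl. In the IL-17 groups it stood at 210.3, 215.1 and 74.5 CPM in siIMP2_IL17, against 242.1, 263.6 and 97.5 CPM in siControl_IL17. Every IMP2 siRNA library lay below every control siRNA library of its prefix. The log2 fold change was -0.34 ± 0.06 (edgeR adjusted p = 7.03e-04) and, with IL-17, -0.29 ± 0.06 (edgeR adjusted p = 0.00171), the smallest of the falls that passed.

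Jund encodes a JUN protein that is present in resting cells. It was at 95.7, 97.1 and 45.5 CPM in siIMP2, against 81.0, 80.3 and 34.4 CPM in siControl, higher by 0.31 ± 0.07 on the log2 scale (edgeR adjusted p = 0.0051). With IL-17 it was at 96.6, 90.8 and 34.4 CPM in siIMP2_IL17, against 82.5, 86.6 and 32.2 CPM in siControl_IL17, a difference of 0.13 ± 0.07 that missed the threshold (edgeR adjusted p = 0.166). The difference between these siRNA effects is the difference of IL-17 responses, for which edgeR called 0 of 13702 genes (0%), with 152 genes and 0 members at an unadjusted p under 0.05, and DESeq2 called 0 genes. Of the reads assigned to Jund 50.8% mapped uniquely, against 84.0% for Jun and 100% for the other 8 members. With uniquely mapped reads alone the log2 fold change of Jund was 0.29 without IL-17 (edgeR adjusted p = 0.0252) and 0.15 with it (edgeR adjusted p = 0.246). Jun, the main partner of FOS, ranged from 103.8 to 135.0 CPM over the IMP2 siRNA libraries and from 112.5 to 129.9 CPM over the control siRNA libraries. Its log2 fold changes were 0.04 ± 0.06 without and 0.02 ± 0.06 with IL-17.

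Egr1 and Egr3 were the members whose siRNA groups did not overlap over all 12 libraries. How many of all genes tested show the same was not counted. Egr1, the abundant EGR factor, was at 118.5, 101.4 and 133.9 CPM in siIMP2, against 204.9, 174.1 and 207.8 CPM in siControl. With IL-17 it was at 107.8, 80.4 and 132.7 CPM in siIMP2_IL17, against 197.6, 161.7 and 195.0 CPM in siControl_IL17. The highest IMP2 siRNA library, 133.9 CPM, was below the lowest control siRNA library, 161.7 CPM. The log2 fold change was -0.74 ± 0.12 (edgeR adjusted p = 5.43e-04) and, with IL-17, -0.80 ± 0.12 (edgeR adjusted p = 2.87e-04). The authors' deposited table gave Egr1 a log2 change of -0.72 with an adjusted p of 0.0839 for IMP2 siRNA against Mock, and one of -0.78 with an adjusted p of 0.0381 for IMP2 siRNA with IL-17 against Mock with IL-17.

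Egr3, a close relative that is usually induced after Egr1, was at 3.57, 2.04 and 4.47 CPM in siIMP2, against 9.89, 11.4 and 6.04 CPM in siControl. With IL-17 it was at 2.83, 2.51 and 2.83 CPM in siIMP2_IL17, against 10.1, 8.93 and 5.47 CPM in siControl_IL17. Again no IMP2 siRNA library reached a control siRNA library. It had the largest fitted change of any member in both comparisons, -1.37 ± 0.28 (edgeR adjusted p = 0.00248) and, with IL-17, -1.54 ± 0.29 (edgeR adjusted p = 0.00131). Within prefixes it was -0.43 in RB160 and -1.93 in NA without IL-17, and -0.94 in RB160 and -1.84 in NA with it.

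Egr2, known for its role in myelinating Schwann cells and in T cells, rose where its relatives fell. It was at 25.4, 21.2 and 8.63 CPM in siIMP2, against 17.6, 14.5 and 7.66 CPM in siControl. With IL-17 it was at 18.5, 21.3 and 8.86 CPM in siIMP2_IL17, against 15, 11.5 and 7.14 CPM in siControl_IL17. The groups overlapped over all libraries but not within a prefix. Its log2 fold change was 0.43 ± 0.13 (edgeR adjusted p = 0.0245) and, with IL-17, 0.49 ± 0.13 (edgeR adjusted p = 0.0128). The first call was lost without replicate 1 or 2 of siIMP2 or replicate 2 of siControl (log2 fold changes of 0.30 to 0.46, adjusted p of 0.0512 to 0.130). The second was lost without replicate 2 of siIMP2_IL17 (0.44, adjusted p = 0.0578) or of siControl_IL17 (0.36, adjusted p = 0.0635). Summed over the family, EGR mRNA was 93.8 ± 18 TPM in siIMP2 and 155.1 ± 18.3 TPM in siControl (SD, n = 3 each), and 85.3 ± 22.9 TPM in siIMP2_IL17 and 145.9 ± 23.8 TPM in siControl_IL17. Egr2 made up 16.1% of the EGR sum in siIMP2 and 7.19% in siControl, and Egr3 made up 6.85% in siIMP2 and 11.9% in siControl.

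**Figure D3:**
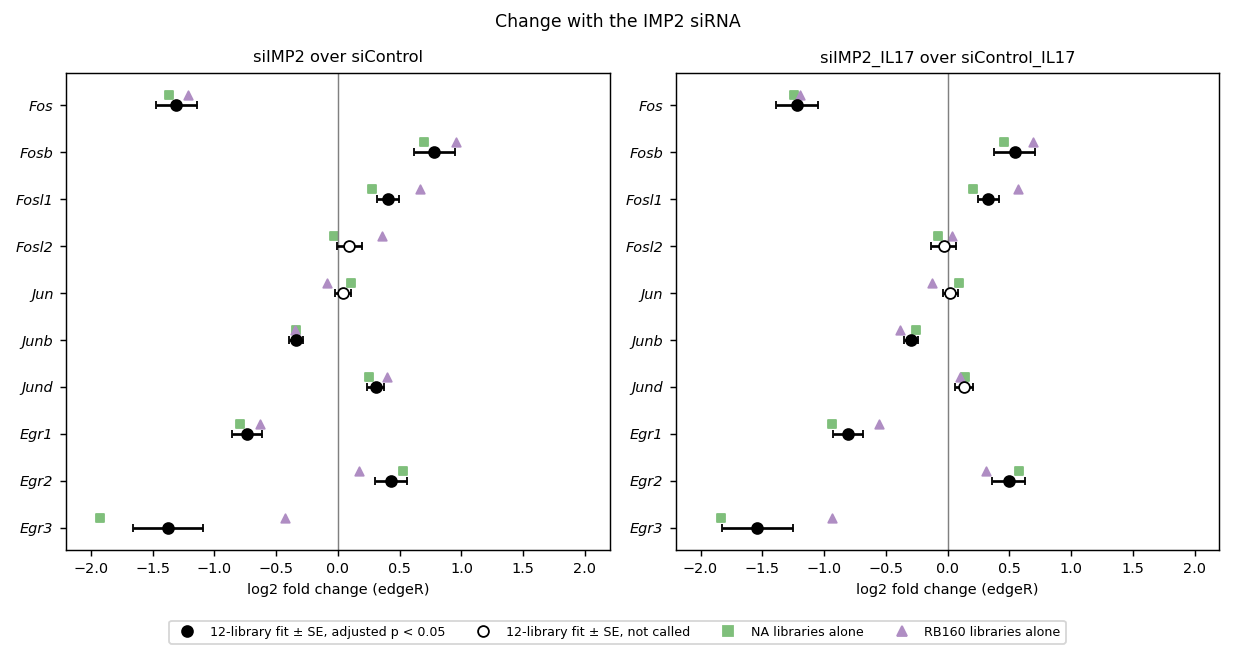
Log2 fold change of exon counts with the IMP2 siRNA for each member, in unstimulated (left) and IL-17-treated cells (right). Filled circles passed an edgeR adjusted p of 0.05, open circles did not, bars are SE, and squares and triangles give the value within NA and RB160 libraries; the 4 members that fell (Fos, Junb, Egr1, Egr3) lie left of 0 in both prefixes.

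Skeletal muscle markers, through Acta1, moved with the siRNA. The 5 skeletal muscle markers summed to 96.3 to 233 CPM in siIMP2 and 36.4 to 49.9 CPM in siControl, and to 58.1 to 189 CPM in siIMP2_IL17 and 18.5 to 33.5 CPM in siControl_IL17. Nearly all of this was Acta1, a skeletal actin gene, at a mean of 161 CPM in siIMP2 and 41.6 CPM in siControl, while the defining factor Myod1 had 0 counts in all 12 libraries and Myog at most 0.0635 CPM in any group mean. The 5 neural markers summed to 36.5 to 39.9 CPM in siIMP2 and 47.8 to 59.8 CPM in siControl, mostly Tubb3, and overlapped with IL-17, at 40.4 to 45.1 CPM in siIMP2_IL17 and 41.2 to 60.3 CPM in siControl_IL17. Their part in the members' changes was not tested.

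Reads outside exons were taken as a gene's total reads minus its exon reads, and can come from introns of unspliced RNA. They made up 4.94% to 6.42% of gene reads in RB160 libraries and 4.49% to 5.09% in NA libraries. Of the members 9 could be tested, among 12463 genes. Jun had 1 such read at most in any library, and neither Jun nor Jund has any base outside exons in the deposited gene, so the 4 to 39 reads per library at Jund cannot be intron reads of that gene model. Levels below are CPM of each library's outside-exon reads.

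Egr1, Fos and Egr3 fell in these reads too, and Egr2 rose in unstimulated cells. These 4 of 9 members were called in siIMP2 against siControl, beside 10.8% of all genes, and Egr1, Fos and Egr3 in siIMP2_IL17 against siControl_IL17, beside 10.7%. Egr1 had 24.7, 16.3 and 46.0 outside-exon CPM in siIMP2, against 97.7, 41.3 and 94.9 in siControl (41, 31 and 109 reads, against 175, 64 and 202). The log2 fold change of these levels was -1.46 ± 0.31 (edgeR adjusted p = 0.00249), and -0.99 ± 0.28 with IL-17 (edgeR adjusted p = 0.0239). The IL-17 call of Egr1 was lost without replicate 1 or 2 of siIMP2_IL17 or replicate 1 of siControl_IL17, with log2 fold changes of -1.02, -0.74 and -0.56, and under DESeq2 (adjusted p = 0.185).

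Fos had 4.21, 5.79 and 15.6 outside-exon CPM in siIMP2, against 20.7, 7.10 and 29.1 in siControl, from 7 to 62 reads per library. The groups overlapped over these libraries. Within NA the closest libraries, replicate 2 of each group, had 5.79 and 7.10 CPM, from 11 reads each. RB160 holds 1 library per group, so overlap within that prefix could not be judged. The outside-exon log2 fold change of Fos was -1.17 ± 0.32 (edgeR adjusted p = 0.0165) and, with IL-17, -1.60 ± 0.33 (edgeR adjusted p = 0.00188). Egr3 changed by -1.17 ± 0.35 (edgeR adjusted p = 0.0297) and, with IL-17, by -1.53 ± 0.36 (edgeR adjusted p = 0.00514). Egr2 changed by 0.83 ± 0.27 (edgeR adjusted p = 0.0445) and, with IL-17, by 0.17 ± 0.25 (edgeR adjusted p = 0.738). In unstimulated cells the Fos, Egr2 and Egr3 calls were lost when single libraries were left out: Fos without replicate 1 of siIMP2 or of siControl (-1.05 and -0.81), Egr3 without replicate 1 or 2 of either group (-0.79 to -1.25), and Egr2 without replicate 1 or 3 of siIMP2, replicate 1 or 2 of siControl or replicate 1 of siIMP2_IL17 (0.68 to 0.85). DESeq2 did not call Egr2 either (adjusted p = 0.119). In the NA libraries alone both outside-exon calls of Fos were lost. The log2 fold changes there were -1.49 (edgeR adjusted p = 0.0572) and, with IL-17, -1.54 (edgeR adjusted p = 0.0671).

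Fosb and Fosl1, which rose in exon counts, had outside-exon log2 fold changes of -0.03 ± 0.33 and 0.14 ± 0.13 without IL-17 and of 0.62 ± 0.32 and 0.06 ± 0.12 with it, none past the threshold. Whether exon and outside-exon changes differed was tested in a joint fit of 11508 genes, of which 2.98% were called without and 2.68% with IL-17. Egr1 alone among the members passed, in unstimulated cells, where its exon change exceeded its outside-exon change by 0.71 ± 0.21 (edgeR adjusted p = 0.0450), that is, exon counts fell less. With IL-17 this difference for Egr1 was 0.19 ± 0.18 (edgeR adjusted p = 0.691), and the unstimulated call was lost without replicate 1 or 2 of siIMP2, replicate 1 or 3 of siControl or replicate 1 of siIMP2_IL17. It was then 0.44 at the lowest (edgeR adjusted p = 0.369, without siControl replicate 1). For Fosb the difference was 0.83 ± 0.34 (edgeR adjusted p = 0.203) and for Fosl1 0.27 ± 0.11 (edgeR adjusted p = 0.201) without IL-17. For Fos it was -0.14 ± 0.29 and for Egr3 -0.19 ± 0.29, each with an SE of 0.29 that limits what these read numbers can show.

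**Figure D4:**
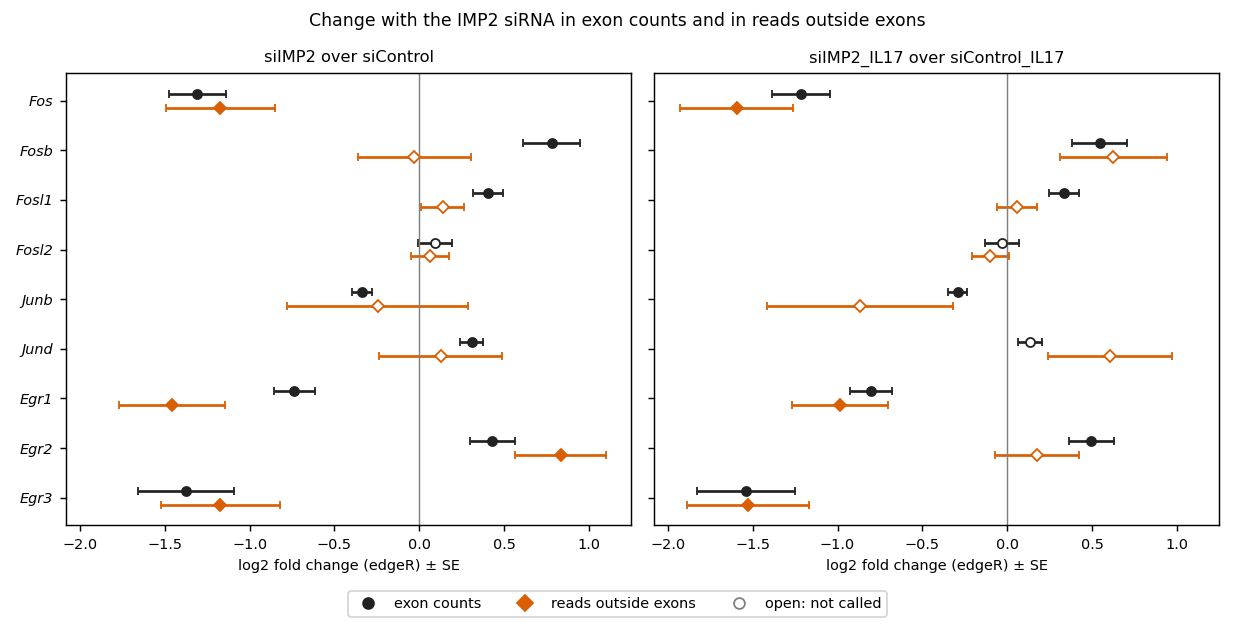
Log2 fold change with the IMP2 siRNA in exon counts (circles) and in reads outside exons (diamonds) for the 9 members tested in both, with SE. Filled symbols passed an edgeR adjusted p of 0.05; Fos, Egr1 and Egr3 lie left of 0 in both kinds of read, with and without IL-17.

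After 8 hours of IL-17 none of the 10 members passed the threshold in siIMP2_IL17 against siIMP2, where 0.511% of all genes did, or in siControl_IL17 against siControl, where 0.423% did. At an unadjusted p under 0.05 there were 3 members with the IMP2 siRNA (Fosl1, Junb and Jund), beside 1038 of 13702 genes. With the control siRNA there was 1 (Fosl1), beside 1503 of 13702 genes. DESeq2 called 0 members in each comparison. The IL-17 response genes Nfkbiz, which encodes an atypical IkB protein, and Cxcl1, a neutrophil chemokine, rose by log2 fold changes of 2.30 ± 0.12 and 3.15 ± 0.24 with the IMP2 siRNA and by 2.05 ± 0.12 and 2.65 ± 0.20 with the control siRNA. Averaged over both siRNAs, a test that called 2.72% of genes called none of the members. Closest to its threshold were Fosl1, at 0.24 ± 0.06 (edgeR adjusted p = 0.0624), and Junb, at 0.14 ± 0.04 (edgeR adjusted p = 0.0848). Both passed with DESeq2, with adjusted p of 0.0128 for Fosl1 and 0.0231 for Junb. The average IL-17 effect for the other members ran from -0.24 ± 0.20 for Egr3 to 0.16 ± 0.12 for Fosb, and for Fos it was -0.14 ± 0.12. Reads outside exons gave 0 of 9 members in each IL-17 comparison, beside 0.112% of genes with the IMP2 siRNA and 0.225% with the control siRNA. Of these members Fosl1 alone had an unadjusted p under 0.05, with either siRNA. So did 729 of 12463 genes with the IMP2 siRNA and 998 with the control siRNA.

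**Figure D5:**
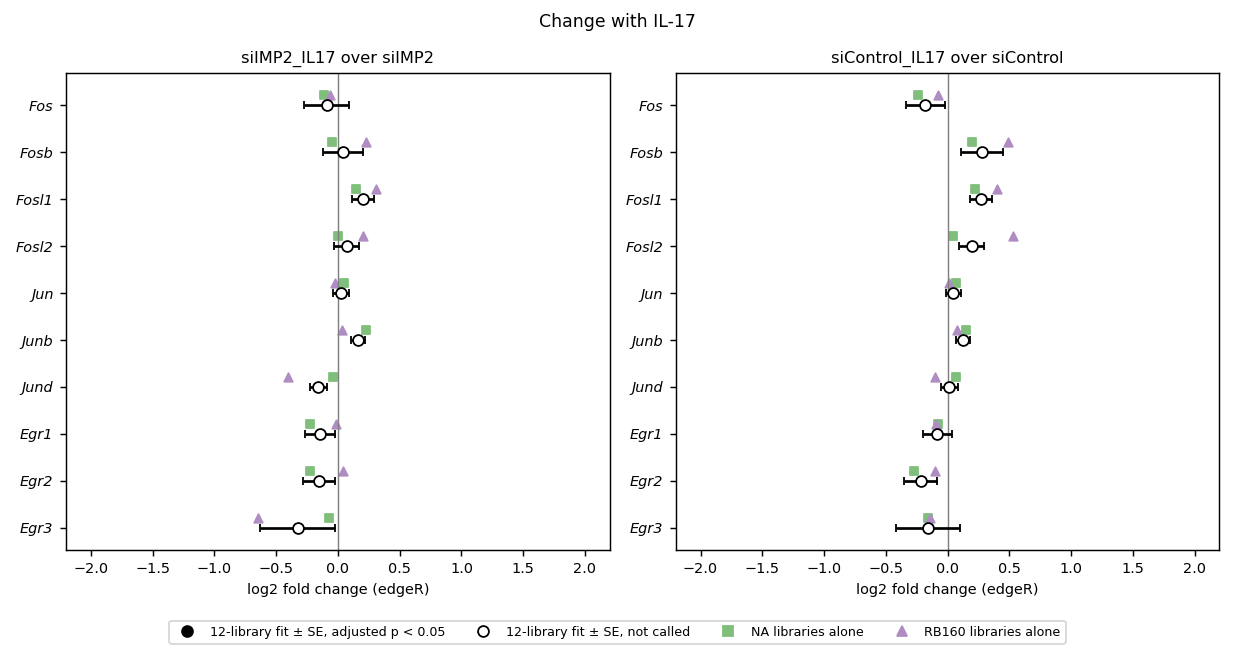
Log2 fold change of exon counts with IL-17 for each member, with the IMP2 siRNA (left) and with the control siRNA (right). Circles with SE bars are the 12-library fit, all open because none passed an edgeR adjusted p of 0.05, and squares and triangles give the value within NA and RB160 libraries.

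Between the title prefixes 8 members differed. In RB160 against NA libraries 2 were higher and 6 lower, a share near that of all genes (69.5%). Fos was higher in RB160 by 1.40 ± 0.12 on the log2 scale and Egr1 by 0.26 ± 0.09 (edgeR adjusted p = 0.0198), a call that was lost without replicate 3 of siIMP2_IL17 (0.18) or of siIMP2 (0.25). Junb was lower by a log2 fold change of -1.38 ± 0.05, Jund of -1.29 ± 0.06, Egr2 of -1.14 ± 0.11, Fosb of -0.97 ± 0.13, Fosl1 of -0.81 ± 0.07 and Jun of -0.22 ± 0.05. Junb ranged from 72.8 to 97.5 CPM in the RB160 libraries and from 178.6 to 263.6 CPM in the NA libraries. Fos and Fosb, relatives in sequence, thus stood on opposite sides here as with the siRNA. Fosl2 (-0.12) and Egr3 (-0.26) did not pass, but Egr3 did without replicate 3 of siIMP2 (-0.56, edgeR adjusted p = 0.0167) and Fosl2 without replicate 3 of siIMP2_IL17 (-0.19, edgeR adjusted p = 0.0472). The prefix holds replicate 3 of every group, and what differed between the sets of libraries was not given.

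The siRNA effect itself differed between prefixes for 2 members, Fosl1 and Egr3, where 6.58% of genes did. Averaged over both stimulus states, Fosl1 rose by 0.62 within RB160 and by 0.24 within NA, a difference of 0.37 ± 0.07 (edgeR adjusted p = 0.0070). Egr3 had log2 fold changes of -0.68 within RB160 and -1.88 within NA, a difference of 1.19 ± 0.25 (edgeR adjusted p = 0.0136). Both calls were lost when any 1 of the 4 RB160 libraries was left out. Directions were the same in both prefixes for Fos, Fosb, Fosl1, Junb, Jund, Egr1, Egr2 and Egr3. For Jun the average siRNA effect was -0.11 within RB160 and 0.10 within NA, and for Fosl2 0.20 within RB160 and -0.06 within NA, without a call for either.

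Centred within each prefix, log2 CPM varied most over the 12 libraries for Egr3 (SD 0.86), Fos (0.69), Egr1 (0.44), Fosb (0.41) and Egr2 (0.30), and least for Jun (0.07). For these 5 the genes of most similar pattern were ranked among 11083 by the root-mean-square difference of the 12 centred log2 values. Closest to Egr1 were Tshz1 (0.11), Adamts1 (0.11) and Ank (0.11), and closest to Fos were Mgp (0.16), Ahr (0.16) and Scara3 (0.17). Slc1a3 (0.18), Eps8 (0.20) and Medag (0.21) were closest to Egr3. Fosb lay closest to Spry4 (0.14), Uhrf1bp1l (0.14) and Gpr176 (0.15), and Egr2 to Pde4dip (0.11), Adam9 (0.11) and Ppme1 (0.11). Among the members, Egr1 was the nearest to Fos, at 0.27 and rank 72, and Fosl1 the nearest to Fosb, at 0.22 and rank 189. All values share the same 12 libraries, and ranking by Pearson's r gave other genes (Tmem173, Plat and Egr1 for Fos).

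Partners and neighbours in the pathway were read in the same fit, in which 16.1% of all genes rose and 16.7% fell in siIMP2 against siControl, and 16.7% rose and 16.7% fell in siIMP2_IL17 against siControl_IL17. The lists are described by counts beside these shares, with no test of a list. Of 12 tested bZIP factors that can pair with FOS, JUN or MAF proteins, 6 rose and 2 fell in siIMP2 against siControl, and 5 rose and 2 fell in siIMP2_IL17 against siControl_IL17, with a median log2 fold change of 0.16 and 0.17 beside about 0 for all genes. Mafk, a small MAF protein without an activation domain, rose by 1.01 ± 0.08 and, with IL-17, by 1.02 ± 0.08. Its relative Maff rose by 0.60 ± 0.10 and 0.45 ± 0.10, and Atf3, a stress-induced partner of JUN, by 0.81 ± 0.19 without IL-17. Batf, a JUN partner best known in lymphocytes, fell by a log2 fold change of -1.47 ± 0.37 without IL-17 and of -1.44 ± 0.37 with it. Both NAB co-repressors, which bind EGR proteins, fell: Nab1 by -0.37 ± 0.07 and, with IL-17, -0.39 ± 0.07, and Nab2 by -0.23 ± 0.07 and -0.34 ± 0.07.

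Of 36 other immediate early genes tested, 21 rose and 3 fell in siIMP2 against siControl, where 16.1% of all genes rose and 16.7% fell, and 20 rose and 3 fell in siIMP2_IL17 against siControl_IL17, where each share was 16.7%. The median log2 fold change of this list was 0.28 without and 0.29 with IL-17, beside 0 and -0.007 for all genes. Gadd45b, a growth arrest gene, rose by 1.02 ± 0.06, the matricellular genes Cyr61 and Ctgf by 0.85 ± 0.07 and 1.66 ± 0.18, and Dusp1, a MAP kinase phosphatase, by 0.68 ± 0.08 without IL-17. The 3 that fell in each comparison were Zfp36l1, Sgk1 and Ier5l, which were picked out after their values were seen. With IL-17 itself Ier3 was the single member of this list that rose, by 0.62 ± 0.11 with the IMP2 siRNA and by 0.74 ± 0.11 with the control siRNA. Atf3, Maff and Srf are each also in a further list.

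Regulators of these genes were also read. Of 7 SRF and ternary complex genes 4 rose and 0 fell in siIMP2 against siControl, and 4 rose and 1 fell with IL-17. Srf rose by 0.60 ± 0.08 and, with IL-17, by 0.66 ± 0.08, and Elk1, a ternary complex factor, by 0.53 ± 0.09 and 0.51 ± 0.09. Of 18 MAP kinase pathway genes 3 rose and 2 fell in siIMP2 against siControl, and 3 rose and 3 fell with IL-17, shares no higher than the 32.9% and 33.4% of all genes called. Map2k6, an activator of p38, had the largest change, -1.43 ± 0.12 without IL-17 and -0.98 ± 0.11 with it. Map2k1, an activator of ERK, rose by 0.54 ± 0.06 in each.

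Genes known as AP-1 targets moved both ways. Of 19 tested, 6 rose and 7 fell in siIMP2 against siControl, and 6 rose and 6 fell in siIMP2_IL17 against siControl_IL17, with medians of -0.13 and -0.08. Mmp9, a gelatinase, fell by a log2 fold change of -3.08 ± 0.18 without IL-17 and of -2.52 ± 0.16 with it, while Plaur, the urokinase receptor, rose by 0.90 ± 0.12 and 0.96 ± 0.12. The chemokine Ccl2 changed by -2.13 ± 0.32 and osteopontin (Spp1) by -0.97 ± 0.15 without IL-17. Of 11 genes known as EGR1 targets 6 rose and 3 fell, and with IL-17 6 rose and 4 fell, with a median of 0.32 in each. Tissue factor (F3) rose by 1.29 ± 0.10 and Pdgfa by 0.71 ± 0.06 without IL-17, and heparanase (Hpse) changed by -1.46 ± 0.22. The first list includes the member Fosl1 and the second the member Egr2, and Nab2 and Tgfb1 are each in a further list.

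Some values carry a limit of annotation. The deposited Egr3 gene spans bases 70077445 to 70080157 of chromosome 14, inside the 70077203 to 70082614 of GENCODE. What the shorter gene does to the Egr3 level was not tested. The labels do not say whether strand was used in counting, and Jun, Jund, Junb and Fosl1 overlap genes on the opposite strand (Junos, Gm11175, Prdx2 and Ccdc85b), whose reads could not be told apart without it. In the authors' deposited table Egr1 with IL-17 was the single member that passed in the siRNA comparisons at matched stimulus. For IMP2 siRNA against Mock the authors' deposited table gave Egr3 a log2 fold change of -1.42 (adjusted p = 0.151) and Fos one of -1.27 (adjusted p = 0.807). For IMP2 siRNA with IL-17 against Mock with IL-17 the authors' deposited table gave Egr3 -1.57 (adjusted p = 0.0634) and Fos -1.21 (adjusted p = 0.989). Fosb, Fosl1, Junb, Jund and Egr2 had adjusted p of 1 in the first and of 0.9999 in the second comparison of the authors' deposited table.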

How the data were processed

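RNA was measured in 12 libraries, grouped by the treatment label; replicates were numbered by accession and the labels do not pair them. The deposited counts are whole-number exon and total gene reads, not normalised, and the deposited TPM are the authors' length-scaled values, per the file headers. The deposited log2 fold changes and p-values are the authors' own, made by a test not given in the sources used here. Reads were mapped to mm10, per the submitters' processing notes. Neither aligner nor counter nor strand setting is named in the sources. Count columns matched the library files in all 12 cases, with 0 per-sample columns unused and 0 unnamed rows.

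Exon counts went through edgeR 4.0.16 (R 4.3.3) with TMM scaling, filterByExpr by group (minimum count 10, minimum total 15) and a quasi-likelihood fit on group and title set. P-values were adjusted over all genes by Benjamini-Hochberg at 0.05. Total minus exon reads were fitted the same way, and both together for the exon minus outside-exon difference. SE is the log2 fold change over the square root of F. Log2 CPM had a prior count of 2. Likeness was ranked over genes averaging at least 1 on that scale, for members whose SD was at least 0.3. Fits were tested on simulated counts. Promoters are from RefSeq (GRCm38.p6), and gene coordinates, those of the deposited files, equalled GENCODE for 8 of 10 members, all but Fosl1 and Egr3. Alternatives covered other scaling factors, DESeq2 1.42.0, 2 other filters, dropping the title-set term, fewer libraries (NA alone, the compared groups, each library left out), a robust fit and uniquely mapped reads. The test of the siRNA effect by title set, a block by runs of titles and the family shares were added after seeing the data. Members and gene lists were chosen with earlier results of these data known. Named genes were all members, Igf2bp2, Nfkbiz, Cxcl1, up to 4 called genes of smallest p per list and comparison, and the 3 genes most like a member; Batf without IL-17 and the genes said to be picked later fall outside this.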

Additional observations from a re-analysis of the deposited data

Results flagged for a closer look

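The change with the IMP2 siRNA differed between the library sets for Fosl1 and Egr3, by a test of the difference itself (edgeR's quasi-likelihood test with a title-set by siRNA term and Benjamini-Hochberg adjustment over 13702 genes, of which 6.58% were called). For Fosl1 the log2 fold change was 0.62 within RB160 and 0.24 within NA libraries, a difference of 0.37 (edgeR adjusted p = 0.0070), and both sets moved upward. For Egr3 it was -0.68 within RB160 and -1.88 within NA libraries, a difference of 1.19 (edgeR adjusted p = 0.0136), and both sets moved downward. RB160 holds 1 library per group, and leaving out any of its 4 libraries ended both calls: the adjusted p was then 0.164 to 0.192 for Fosl1 and 0.0775 to 0.361 for Egr3. RB160 libraries also held a lower share of mitochondrially encoded counts, 3.31% to 3.85% against 5.41% to 6.9% in NA libraries, whose part in this difference was not tested.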

How the results depend on the processing

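All member log2 fold changes that passed the threshold kept their direction under every alternative run. Without the title-set term, calls in siIMP2 against siControl numbered 0 members and 321 genes, in siIMP2_IL17 against siControl_IL17 2 members and 327 genes, for the average siRNA effect 2 members and 1666 genes, for IL-17 2 genes with the IMP2 siRNA and 1 with the control siRNA, for the average IL-17 effect 4 genes, and in reads outside exons 0 members in each siRNA comparison. DESeq2 called 170 genes for IL-17 with the IMP2 siRNA, 197 with the control siRNA, and 651 genes and 2 members for the average IL-17 effect. With all genes of at least 1 count these became 179, 221, 674 and 1 member, and with uniquely mapped reads 1 member. The NA libraries alone gave 46 genes for IL-17 with the IMP2 siRNA, 199 for its average effect and 2 members outside exons in siIMP2 against siControl. Fits of only the groups compared gave 349 genes for IL-17 with the IMP2 siRNA and 100 with the control siRNA. Leaving out each library in turn gave 7 to 8 members in siIMP2 against siControl, 5 to 7 in siIMP2_IL17 against siControl_IL17, 0 to 1 for the average IL-17 effect, 0 to 2 for the siRNA effect by title set, 1 to 4 outside exons in siIMP2 against siControl and 2 to 3 with IL-17, and 0 to 1 for exon minus outside exons. Genes for IL-17 then numbered 13 to 117 with the IMP2 siRNA, 9 to 98 with the control siRNA and 198 to 490 on average. Where a setting moved a value, the cause was not tested, except that fewer libraries enter when one is left out. The labels do not say that consecutive titles (NA1 to NA4, NA5 to NA8, RB160) share a culture. Over 13702 genes, differences between the 2 NA runs correlated by 0.017 to 0.166 between the 6 pairs of groups. A fit with these runs as a replicate block, added after seeing the data, called 8 members and 4710 genes in siIMP2 against siControl and 7 members and 4785 genes in siIMP2_IL17 against siControl_IL17, and changed no call of a member. Exon counts of 65 to 873 for Fos and 70 to 380 for Egr3 per library, and outside-exon reads as few as 5 to 98 for these genes, limit the precision of their values.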

Other observations

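Heat-shock genes, which cell dissociation can raise along with immediate early genes, were read because the cells were trypsinized. Of 14 tested, 2 rose and 1 fell in siIMP2 against siControl, and 3 rose and 3 fell in siIMP2_IL17 against siControl_IL17, beside 32.9% and 33.4% of all genes called. Hspb1, a small heat-shock protein, rose by a log2 fold change of 1.10 ± 0.09 and, with IL-17, of 1.08 ± 0.09, and the co-chaperone gene Dnajb4 rose by 0.83 ± 0.07 and 0.77 ± 0.07. Hsph1 changed by -0.35 ± 0.10 and -0.40 ± 0.10. The list summed to 10200 to 11100 CPM in siIMP2 and 10800 to 11400 CPM in siControl. With IL-17 the list summed to 10600 to 11300 CPM in siIMP2_IL17, below the 11800 CPM of siControl_IL17. Its part in the members' changes was not tested.

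With IL-17 itself, Map2k6 rose in siIMP2_IL17 against siIMP2 by 0.76 ± 0.12 (edgeR adjusted p = 0.0158), the single call among the 18 MAP kinase genes. Among the AP-1 targets Ccl2 rose with IL-17 by 2.04 ± 0.32 with the IMP2 siRNA and by 1.54 ± 0.30 with the control siRNA, Il6 by 2.41 ± 0.38 and Vegfa by 0.50 ± 0.10 with the control siRNA. With the IMP2 siRNA the log2 fold change was 2.05 ± 0.47 for Il6 (edgeR adjusted p = 0.0910) and 0.46 ± 0.10 for Vegfa (edgeR adjusted p = 0.0570), and edgeR called neither for a difference between the siRNAs (adjusted p = 1.0). All 13 mitochondrially encoded protein genes were lower in RB160 than in NA libraries, with a median log2 fold change of -1.12, and 0 of them were called in either siRNA comparison.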
